A study of Homo sapiens with 4 samples.

Results

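The laminin genes LAMA3, LAMA4, LAMA5, LAMB1, LAMB2, LAMB3 and LAMC1 and the linker genes NID1 and AGRN were followed by RNA-seq in PDAC (pancreatic ductal adenocarcinoma) cells labelled MIA PaCa-2. The members were chosen with earlier results of these data known. They were matched by gene symbol, and all 9 were found among the 16834 genes of the deposited table. The cells, an established human line listed as wild type, were kept for 12 h under one of 4 conditions. The control received neither drug, the NBT cells received 1 µM neobractatin (a natural compound from Garcinia bracteata), the trametinib cells received 5 µM of this MEK inhibitor, and the combination cells received both at the same doses. Each condition was sequenced as 1 library. There are thus no replicates, and a difference between libraries includes any difference between cultures. The comparisons asked how the transcripts of the basement membrane differed under each drug alone and under the pair. Where 4 values are given for a gene, they stand in the order control, NBT, trametinib, combination. In bulk RNA, fewer cells that express a gene and less RNA per cell cannot be told apart.

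Laminins are the trimers on which basement membranes are built. Each trimer joins an alpha, a beta and a gamma chain, and the alpha chain carries most of the sites for cell receptors. Many of the trimers, though not all, polymerise into a sheet next to the plasma membrane. Nidogen (NID1) bridges that sheet to the collagen IV network by binding the gamma1 chain, and agrin (AGRN), a heparan sulfate proteoglycan, ties it to dystroglycan and LRP4 on the cell. In epithelia, the trimer that holds the LAMA3 and LAMB3 chains anchors hemidesmosomes through integrin alpha6beta4, while the trimer of LAMA5, LAMB1 and LAMC1 chains is the common laminin under mature epithelium and is also bound by BCAM.

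Estimated counts summed to between 18776254 and 19614826 per library, and a limit of 3 counts corresponded to 0.153 to 0.160 CPM (counts scaled to the library sum). The MAPK output genes DUSP6, DUSP4, SPRY4, SPRY2, ETV4, ETV5 and SPRED2 were all lower in both libraries labelled with trametinib, with median log2 ratios to control of -3.56 (trametinib) and -3.42 (combination). With NBT their median was 0.26, with 5 of these genes above 0 and 2 below. ETV5 passed as higher with NBT (1.03), and DUSP4 stood at -0.97. Epithelial markers were high in every library, with KRT8 at 3799.23, 3151.39, 2216.20 and 1492.67 TPM (a level scaled to gene length and library), KRT18 at 3141.54, 2693.81, 1047.93 and 995.27 TPM, EPCAM at 209.12 to 242.36 TPM and CDH1 at 85.43, 51.21, 86.91 and 57.01 TPM. VIM stood at 11.48, 13.01, 23.46 and 26.39 TPM and CDH2 at 0 to 0.08 TPM. ZEB1, also listed as a mesenchymal marker, stood at 1.38, 2.61, 1.04 and 2.12 TPM. Its log2 ratios to control were 0.95, -0.40 and 0.61, none past the limits, and with trametinib it went the other way from VIM. ZEB1 passed as higher in the combination against trametinib (1.01). CDKN2A, added after its values were seen, stood at 248.78 to 341.89 TPM. MIA PaCa-2 is generally described as a mesenchymal-like line with abundant vimentin, little E-cadherin and a deletion of CDKN2A, so these levels go against the cell line label in all 4 libraries. The identity of the cells was not tested, and the libraries are named here by their treatment. Fibroblast markers summed to at most 1.90 TPM and endothelial markers to at most 0.67 TPM, with COL1A2 and LUM at 0 TPM in 3 libraries each and PDGFRB and CDH5 at 0 TPM in the control. Of the leukocyte markers, PTPRC was at most 0.99 TPM, CD3E was at 0, 0, 4.23 and 2.14 TPM, and CD68, which lysosomes of many cells also contain, was at 91.89 to 139.24 TPM. KRT18 passed as lower and VIM and CD3E as higher in both libraries with trametinib, KRT8 passed as lower with the combination, and COL1A1 (45, 27, 98 and 53 reads) and VWF (3, 4, 25 and 6 reads) as higher with trametinib alone. CDH1 had log2 ratios to control of -0.67, 0.05 and -0.54, none past the limits, and like LAMA5 it was lowest in the libraries with NBT. The part of these genes in the laminin results was not tested.

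Of the 9 genes, 7 had at least 100 counts in a library. LAMA4 and NID1 were near the limit of detection. A gene was said to pass when an exact binomial test of 2 libraries, adjusted over all genes, and a log2 ratio of at least 1 in size were both met, the limits of the study's methods. This compares libraries and not conditions, so no p-value is given. The 95% intervals in the text were obtained by the Clopper-Pearson method and include counting error alone. Over the 6 pairs of libraries, the interval of the log2 ratio included 0 in 1 of 42 cases for these 7 genes, that of LAMA5 between the combination and NBT. The plot of levels shows all 4 libraries for each of them.

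**Figure D1:**
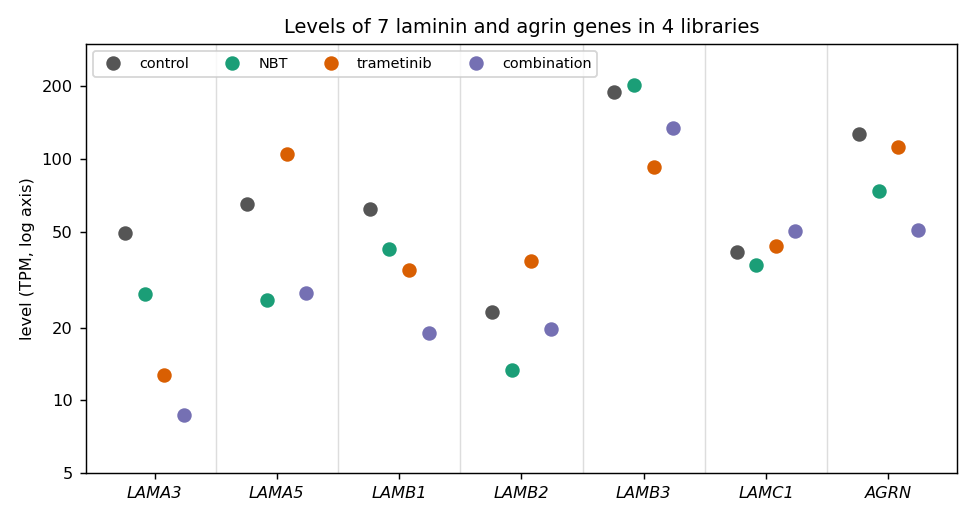
Levels of the 7 laminin and agrin genes with at least 100 counts in a library, in TPM on a log axis, with 1 point per library (control, NBT, trametinib, combination). LAMA3 and LAMB1 step down from control to combination, LAMA5 and LAMB2 are highest with trametinib and lowest with NBT, and LAMC1 stays between 36.26 and 50.23 TPM.

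LAMA3 had the largest range of the 7 genes and was lowest with both drugs. This gene (NCBI Gene 3909, chr18:23689453-23955066, GRCh38) encodes the alpha3 chain, the alpha chain of the hemidesmosome trimer. It had 3246, 2064, 1003 and 669 estimated reads, which corresponds to 49.15, 27.57, 12.76 and 8.68 TPM. The control was thus the highest library and the combination the lowest, with every step between neighbours larger than counting error. The log2 ratio to control was -0.70 for NBT (95% interval -0.78 to -0.62), -1.71 for trametinib (-1.81 to -1.61) and -2.34 for the combination (-2.46 to -2.22). LAMA3 fell past the limits with trametinib and with the combination, and it fell by 1.64 on the log2 scale when the combination was set against NBT. Between the combination and the control, 0.446% of the 10527 genes that reached 100 counts had a lower ratio.

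The decrease of LAMA3 was found in the short transcripts. LAMA3 has a short form that starts at an internal promoter and a long form that starts at the upstream end of the gene, and estimates were deposited for 7 RefSeq transcripts of it. The 2 models with an effective length of 6.72 and 7.01 kb together held 2984.68, 1741.74, 631.09 and 397.38 reads. The 4 models of 10.5 to 10.6 kb together held 244.22, 322.13, 371.90 and 257.96 reads. The short models thus went down with each treatment while the long ones did not go below the control. On the log2 scale the short models stood at -2.25 with trametinib (-2.38 to -2.13) and -2.97 with the combination (-3.13 to -2.82), and the long models at 0.59 (0.36 to 0.83) and 0.02 (-0.24 to 0.28). The share of LAMA3 reads in the short models was 91.9%, 84.4%, 62.9% and 59.4%. Within the short pair, NM_000227.5 had 2514.96, 1523.32, 230.60 and 125.03 reads, a log2 ratio of -4.39 with the combination, and XM_017025744.1 had 469.72, 218.42, 400.49 and 272.35. Shared reads were divided between these models by the counting program, and the intervals leave out the error of that division. Only NM_000227 could be placed on the annotation, by a GENCODE model of 5671 spliced bases. The deposited NM_000227.5 has a longer effective length (6.72 kb), so it differs from that model, and its own start was not established. Where XM_017025744.1 starts was not established here either.

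**Figure D2:**
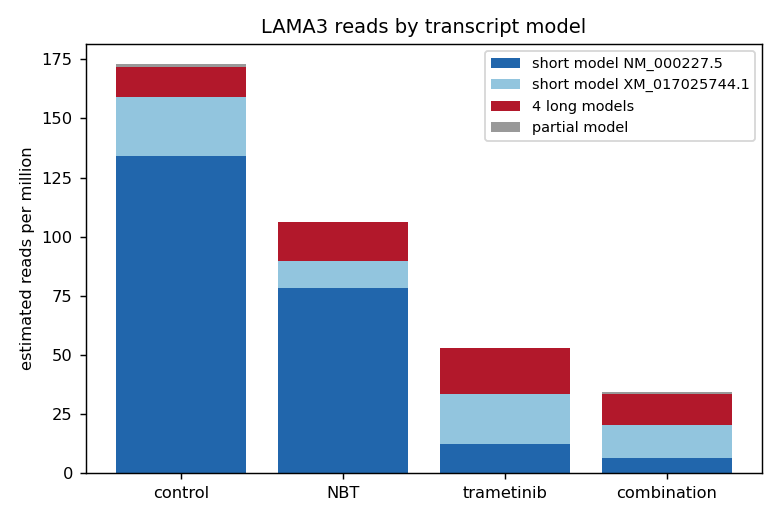
Estimated LAMA3 reads scaled to the library sum (RPM) in each library, stacked by transcript model: 2 short models, 4 long models and 1 partial model. The short models fall from 159 RPM in the control to 20.3 RPM with the combination, while the long models hold 13.0 to 19.6 RPM in every library.

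The sequence before the internal LAMA3 start is shown because the short form is annotated to start there. RefSeq places the start at position 23873020, and the 250 bases before it (GRCh38.p14, plus strand) hold 2 exact matches to the AP-1 motif TGACTCA or its reverse complement TGAGTCA. AP-1 factors are dimers of the FOS and JUN families and lie downstream of MAPK signaling. The matches begin 125 and 69 bases before the start. The GENCODE v29 model of NM_000227 starts 180 bases further upstream, at 23872840, so both matches lie downstream of that start. The same motif was found 67 bases before the most downstream of 3 RefSeq starts of LAMB3 (209651374, minus strand). Capitals mark the motif in these stretches of 29 bases, shown for the only matches among the 10 windows of the members:
LAMA3, chr18:23872884-23872912: ctggcacaggcTGACTCAtgtgtgaagtt
LAMA3, chr18:23872940-23872968: ccttcctcaccTGAGTCAggcaggcccgg
LAMB3, chr1:209651424-209651452: gtcagccactcTGACTCAttcactttggg
Of 35116 RefSeq windows of this length, 4.20% held at least 1 match and 0.182% held 2 or more. The GC box and the motifs CRE (TGACGTCA), ETS (CCGGAAGT), ARE (TGACNNNGC) and CARE (TGATGNAAT), with N for any base, were searched as well. No match to CRE, ETS, ARE or CARE was found in the 10 windows of the members. These motifs were found in 1.65%, 3.42%, 10.9% and 0.888% of all windows. Windows were given for 8 of the 9 members, and AGRN was not among them. A match is a run of letters, and binding was not measured.

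LAMB3 was lowest with trametinib and highest with NBT. It encodes the beta3 chain, which is found in the trimer with the alpha3 chain (NCBI Gene 3914, chr1:209614870-209652425), and it had the highest level per length of the 9 genes in the control, NBT and combination libraries. Its reads were 7266, 8449, 3647 and 5502, or 189.95, 203.22, 92.95 and 134.49 TPM. NBT was the highest library and trametinib the lowest, and the combination lay between trametinib and the control. LAMB3 fell with trametinib by 1.01 on the log2 scale (interval -1.07 to -0.95), which reaches both sides of the limit of 1. Its log2 ratio was 0.17 for NBT (0.12 to 0.21), -0.46 for the combination (-0.52 to -0.41), and 0.54 (0.48 to 0.60) in the combination against trametinib. The transcript NM_000228.3, whose annotated start lies upstream of the window with the motif, held 77.3% to 84.9% of the LAMB3 reads, and NM_001017402.1, which GENCODE starts nearest to that window, had 137.26, 433.81, 65.28 and 122.91 reads.

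LAMA5 fell with NBT and was highest with trametinib. It encodes the alpha5 chain (NCBI Gene 3911, chr20:62309065-62367312), the most widely expressed alpha chain of adult epithelium. It had 7115, 3087, 11719 and 3258 reads, and the levels were 65.15, 26.13, 104.54 and 27.83 TPM. Trametinib was the highest library, and the combination and NBT were the lowest pair, with an interval of -0.01 to 0.14 for the log2 ratio between them. LAMA5 fell by 1.25 with NBT on the log2 scale (interval -1.32 to -1.19) and by 1.19 with the combination (-1.25 to -1.13). Its log2 ratio with trametinib was 0.71 (0.66 to 0.75), short of the limit. Of the 10408 genes with 100 counts or more, 0.279% had a lower ratio with NBT. For trametinib, 94.4% of 10520 such genes had a lower one. Against the trametinib library, LAMA5 fell by 1.90 in the combination (-1.95 to -1.84).
Both larger transcript models of LAMA5 were highest with trametinib. NM_005560.6 had 6197.71, 2478.59, 9520.42 and 2793.68 reads, lowest with NBT. XM_011528819.2 had 893.88, 596.24, 2172.68 and 451.19 reads, lowest with the combination. The 250 bases before the LAMA5 start are shown because this gene had the lowest ratio with NBT of the 7, and they hold no AP-1 match and 5 GC boxes (GGGCGG or its reverse complement, in capitals). The LAMB1 window also held no AP-1 match and had 4 GC boxes, LAMC1 had 3 and the LAMA3 window 1, so these letters do not set LAMA5 apart. At least 1 GC box was found in 42.6% of all windows.
LAMA5, chr20:62367313-62367562, minus strand, GRCh38.p14: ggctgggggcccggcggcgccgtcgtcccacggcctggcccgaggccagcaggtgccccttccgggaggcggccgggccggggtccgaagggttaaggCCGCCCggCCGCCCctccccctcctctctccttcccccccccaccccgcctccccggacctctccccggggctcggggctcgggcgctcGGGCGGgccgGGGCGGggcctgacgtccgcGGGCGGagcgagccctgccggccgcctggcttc

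The balance of the alpha chains differed between libraries. LAMA5 was at 1.33 times the TPM of LAMA3 in the control, 0.948 times with NBT, 8.19 times with trametinib and 3.21 times with the combination. The summed alpha chain level was 114.30 TPM in the control and 117.30 TPM with trametinib, although both genes differed between these libraries. It was 53.71 TPM with NBT and 36.55 TPM with the combination.

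LAMB1 was lower with each drug and lowest with both. Its product, the beta1 chain (NCBI Gene 3912, chr7:107923799-108003161), pairs with the alpha5 and gamma1 chains. Its reads were 3361, 2500, 1916 and 1097, and the TPM values were 62.29, 42.57, 34.60 and 19.08. As for LAMA3, the control was highest and the combination lowest. The log2 ratio was -0.48 with NBT (-0.55 to -0.40) and -0.82 with trametinib (-0.91 to -0.74), and of the 3 comparisons with the control LAMB1 fell past the limits only in that of the combination, by 1.68 (-1.78 to -1.58). It also fell in the combination against NBT, to 0.435 times (0.405 to 0.467). NM_002291.3 held 94.7% to 97.3% of its reads.

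LAMB2 had the order of libraries of LAMA5. It encodes the beta2 chain, which replaces beta1 in the basement membranes of kidney glomerulus and synapse (NCBI Gene 3913, chr3:49121114-49133050). It had 1260, 786, 2100 and 1151 reads, or 23.21, 13.37, 37.62 and 19.77 TPM. Trametinib was highest, NBT lowest, and the combination close to the control. The log2 ratios to control were -0.73 for NBT (-0.86 to -0.60), 0.72 for trametinib (0.62 to 0.83) and -0.19 for the combination (-0.31 to -0.08), none past the limits. Between the single drugs LAMB2 passed, with NBT lower than trametinib by a log2 ratio of -1.45. The estimates differed most for NM_002292.4 (987.72, 563.67, 1842.64 and 894.84 reads), whereas XM_005265127.4 held 272.28, 222.33, 257.36 and 256.16 reads.

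LAMC1, which encodes the gamma1 chain that nidogen binds (NCBI Gene 3915, chr1:183023420-183145592), varied least. It had 3120, 2987, 3413 and 4096 reads, or 41.05, 36.26, 43.72 and 50.23 TPM. The combination was the highest library and NBT the lowest. Its log2 ratios were -0.11 for NBT (-0.19 to -0.04), 0.12 for trametinib (0.05 to 0.19) and 0.33 for the combination (0.26 to 0.40), all short of the limits.

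**Figure D3:**
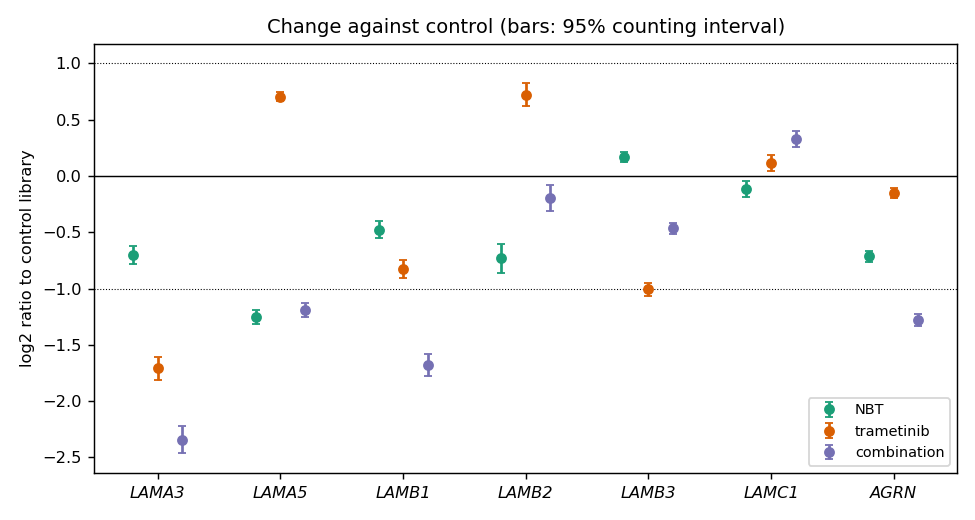
Log2 ratio of each treated library to the control library for the 7 genes with at least 100 counts; points are 1 library pair each, bars are 95% counting intervals, and dotted lines mark the limit of 1. With the combination 4 genes lie below -1 (LAMA3, LAMA5, LAMB1 and AGRN, beside 8.73% of all genes that passed in either direction), and only LAMC1 lies above 0.

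The beta chains were set beside the alpha chains by summing TPM. The 3 beta chain members summed to 275.45, 259.16, 165.17 and 173.34 TPM, and LAMB3 made up from 56.3% (trametinib) to 78.4% (NBT) of it. The share of LAMB2 ranged from 5.16% with NBT to 22.8% with trametinib. With the combination the alpha chains were thus at 0.320 times the control sum, the beta chains at 0.629 times, and LAMC1 at 1.22 times its control level. These are RNA levels, and assembled trimers were not measured.

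**Figure D4:**
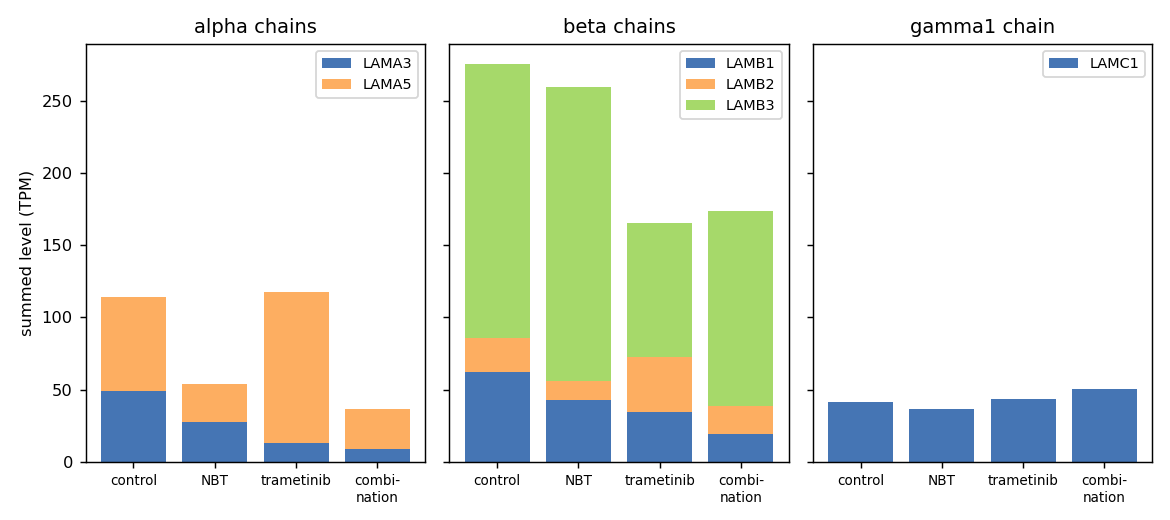
Summed TPM of the expressed alpha (LAMA3, LAMA5), and beta (LAMB1, LAMB2, LAMB3) chain genes and of the gamma1 chain gene LAMC1 in each library, stacked by gene on axes that start at 0. The alpha chain stack stands at 114.30 TPM in the control and 117.30 TPM with trametinib, with little LAMA3 in the latter, and lowest with the combination.

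Among the linkers, AGRN was abundant and NID1 was not. AGRN (NCBI Gene 375790, chr1:1020120-1056116) had 8894, 5626, 8105 and 3836 reads, or 126.74, 73.94, 112.47 and 50.96 TPM. The control and trametinib libraries were the upper pair and the combination was lowest. The log2 ratio was -0.71 with NBT (-0.76 to -0.66) and -0.15 with trametinib (-0.19 to -0.10), and AGRN fell by 1.28 with the combination (-1.33 to -1.22). It also fell by 1.13 in the combination against trametinib. NM_198576.4 held 87.7% to 95.6% of the reads, and a minor model with 39 exons in place of 36, NM_001305275.2, had 408.40, 46.64, 160.24 and 77.23 reads. Of the other minor models, XM_005244749.3 had 555.32, 367.61, 137.81 and 0 reads, and XM_011541429.2 had 118.82, 28.86, 80.04 and 41.78. NM_001364727.2 had 14.44, 47.87, 15.82 and 48.25 reads and was lowest in the control. Shared reads were divided between these models by the counting program, so a change of 1 model was not tested.
NID1 (NCBI Gene 4811, chr1:235975830-236065090) had 7, 1, 29 and 5 reads. It rose with trametinib by a log2 ratio of 1.96, with an interval of 0.82 to 3.47 that shows how few reads carry it, and the highest level was 0.52 TPM. With 1 read, NBT was at 0.138 times the control (interval 0.00306 to 1.07). LAMA4, the alpha4 chain gene of endothelium and muscle (NCBI Gene 3910, chr6:112107931-112254985), had 0, 1, 0 and 3 reads, so no fold is given.

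Counted over the members, 1 of 9 tested genes passed with NBT (LAMA5, lower), against 2.77% of all 15891 genes tested and 1.13% in the lower direction. With trametinib, 3 of 8 passed, LAMA3 and LAMB3 lower and NID1 higher, against 6.13% of 16199 genes, 2.28% lower and 3.85% higher. With the combination, 4 of 9 passed, LAMA3, LAMA5, LAMB1 and AGRN, all lower, against 8.73% of 16233 genes, 3.83% in the lower direction. Since abundant genes pass more easily at a given ratio, the same shares were taken over genes that reached 100 counts, where they were 2.02%, 4.75% and 7.87%. There the median log2 ratio of the 7 members was -0.70 for NBT, -0.15 for trametinib and -1.19 for the combination, beside medians of -0.00386, 0.0530 and 0.0198 over all such genes. The 3 comparisons share the control library and are given side by side only. Because the members were chosen with earlier results of these data known, these counts cannot show that laminin genes responded more than other genes.
When the combination was compared with NBT, LAMA3 and LAMB1 passed as lower, and 4.54% of all genes passed, 2.16% as lower. Compared with trametinib, LAMA5, NID1 and AGRN passed as lower, beside 6.37% of all genes and 3.73% in that direction. Between NBT and trametinib, LAMA3 and LAMB3 were higher with NBT (3.01% of all genes), LAMA5, LAMB2 and NID1 were lower (5.48%), and 8.49% passed in all. The log2 ratio of LAMA3 between these libraries was 1.004 (interval 0.89 to 1.11), which reaches both sides of the limit of 1.

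Adding the log2 ratios of the single drugs gave values near that of the combination for some genes and not for others. For LAMA3 the sum was -2.41 and the combination -2.34, a difference of 0.07 with a counting interval of -0.09 to 0.23. LAMA5 lay farthest below the sum, at -1.19 against -0.55, a difference of -0.64 (-0.72 to -0.56). AGRN (-0.42), LAMB1 (-0.38) and LAMB2 (-0.19) also lay below it, and LAMB3 (0.38) and LAMC1 (0.33) above it. None of the 7 genes reached a departure of 1 in size, which 2.33% of 11367 genes with at least 50 counts in a library did. The middle 95% of those genes spanned -0.82 to 0.64, and all 7 members lay within it.

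**Figure D5:**
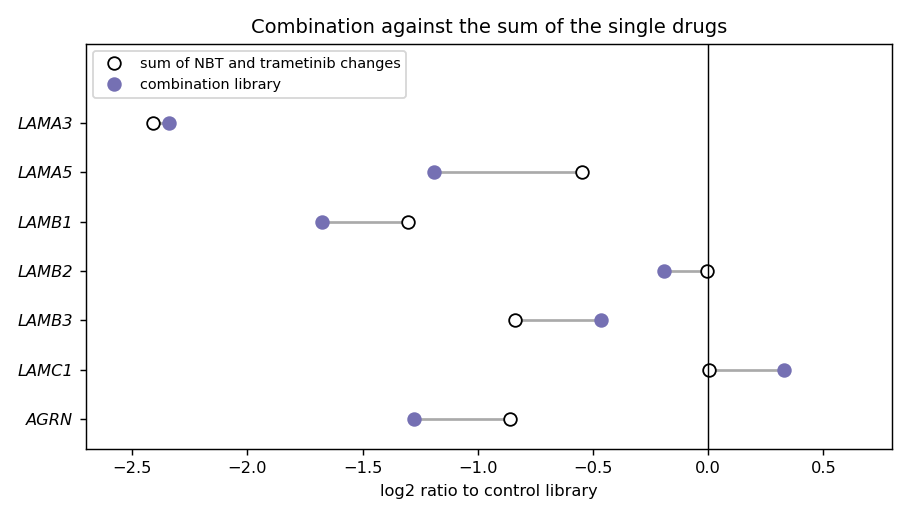
Log2 ratio of the combination library to control (filled) and the sum of the log2 ratios of the single-drug libraries (open) for the 7 genes. The points nearly coincide for LAMA3 (-2.34 and -2.41) and stand 0.64 apart for LAMA5.

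Lists chosen with earlier results known gave the genes that work with laminins and agrin: receptors, network partners, processing enzymes and dystroglycan glycosylation. Their counts are to be read beside the shares of all genes, which were 1.13% lower for NBT, 2.28% lower and 3.85% higher for trametinib, and 3.83% lower and 4.9% higher for the combination. Of 13 receptor genes tested, 1 passed as lower for NBT, 3 for trametinib and 4 for the combination, and none as higher. BCAM, the Lutheran receptor for the alpha5 chain, had 3189, 879, 3887 and 981 reads. It fell by 1.91 with NBT and by 1.76 with the combination on the log2 scale, with a value of 0.27 for trametinib, the same order of libraries at the top and bottom as LAMA5. The integrin subunits that bind the hemidesmosome trimer had other profiles. ITGA6 had 6079, 7366, 1993 and 3563 reads, and it fell by 1.62 with trametinib. NBT was the highest ITGA6 library and trametinib the lowest, as for LAMB3. ITGB4 had 17404, 11756, 9639 and 6935 reads and fell by 1.39 with the combination, ITGA3 fell by 1.17 with trametinib and 1.40 with the combination, and ITGA2 by 1.48 and 1.96. DAG1, the dystroglycan gene, had log2 ratios of -0.43, 0.08 and -0.76, none past the limits.
Of the 16 network partners, 0 of 14 tested passed with NBT, where 2.77% of all genes did. With trametinib 2 of 15 were higher, and with the combination 2 of 16 were higher and 1 lower. NTN4, a netrin that binds gamma1 and disturbs laminin polymers, had 784, 856, 1755 and 2503 reads, and it rose by a log2 ratio of 1.15 with trametinib and 1.61 with the combination. COL4A2, a collagen IV chain, fell by 1.10 with the combination, from 3849 to 1879 reads, and its partner COL4A1 had a log2 ratio of -0.88. COL4A6, another collagen IV chain, had 42, 67, 89 and 102 reads and rose with trametinib and the combination. HSPG2 (perlecan) had 706.88, 412, 1130.44 and 568.41 reads, highest with trametinib and lowest with NBT as LAMA5 and LAMB2 were, and did not pass against the control.
Of the 9 processing genes, MMP14 and MMP2, proteases that cleave laminin chains, were lower with trametinib (log2 ratios -1.21 and -1.16) and with the combination (-1.07 and -1.68). PRSS12, the neurotrypsin that cleaves agrin, passed as higher with the combination on 0, 3, 3 and 7 reads, and it was named after its values were seen. LAMA2, the alpha2 chain gene of muscle, passed as higher with the combination on 10, 17, 8 and 42 reads. Of the 13 glycosylation genes, B4GAT1 passed with the combination, at -1.44, beside 8.73% of all genes in either direction, and none passed with either single drug.

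The genes whose 3 log2 ratios to control lay nearest to those of a member were sought among 9985 genes with at least 100 counts in all 4 libraries, by Euclidean distance over these 3 values. LAMA5 was nearest to PLEKHA7 (distance 0.27), EPN3 (0.30) and CELSR2 (0.32). SOX7 (0.19) and FXYD5 (0.45) were among the nearest to LAMA3, and LAMB1 was nearest to TSPAN4 (0.07), TNFRSF10D (0.20) and SEMA7A (0.26). For LAMB3 the nearest genes were IRF2BP2 (0.10), EIF2B2 (0.11) and ADAM8 (0.12), and for AGRN they were GAS6 (0.09), LDHA (0.13) and CDT1 (0.15). With 4 libraries, likeness of this kind is a description of 3 numbers per gene.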

How the data were processed

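RNA-seq libraries of the 4 conditions were made on the BGISEQ-500 platform. For every gene and RefSeq transcript, the authors deposited the estimated count with its TPM and FPKM values, and the submitters' processing notes name Bowtie2 2.2.5, RSEM 1.2.8 and hg38. The sample labels describe removal of bacterial rRNA, and they list a cell line number that differs between libraries. Conditions were taken from the treatment labels.

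Estimated counts were rounded and scaled to library sums, and log2 ratios were computed after adding 0.5 reads. Genes with 1 count or more in one of the 2 libraries were compared with an exact two-sided binomial test and Benjamini-Hochberg adjustment (0.05, absolute log2 ratio of at least 1). The calculation was tested on simulated libraries. The deposited TPM values were used for levels between genes, and the deposited FPKM values only to derive effective transcript lengths. Members and gene lists were chosen with earlier results of these data known. Named genes were all members, list genes past the limits against control that reached 100 counts, and the 3 nearest genes of each member past the limits; a few others (LAMA2, PRSS12, HSPG2, DAG1, COL4A1, CDKN2A) were added after their values were seen. Some genes that the rule would name are not reported here. KRT19 and DCN, listed as markers, were not analysed here. Alternatives were edgeR's TMM, DESeq2's size factors, TPM with a pseudocount of 0.1, 5 added reads, summed transcript counts, a minimum of 10 counts, edgeR's exact test with assumed coefficients of variation of 0.2 and 0.4, and no log2 limit. Promoter windows and starts were those of RefSeq (GRCh38.p14), and transcripts were placed with GENCODE v29 (GRCh38). The work was done in R 4.3.3 with edgeR 4.0.16 and DESeq2 1.42.0, and in Python 3.11.15 with numpy 2.4.6, scipy 1.17.1 and pandas 2.3.3.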

Additional observations from a re-analysis of the deposited data

Results flagged for a closer look

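LAMC1 was the one member whose log2 ratio for NBT pointed in opposite directions without and with trametinib, both beyond counting error. It was -0.11 in the NBT library against control and 0.21 in the combination against trametinib. This rule has no size limit, and its share over all genes was not counted. Without a log2 limit, 35.9% of all genes passed for NBT against control and 45.9% for the combination against trametinib. LAMC1 lay above the sum of the single drugs by 0.33, and 89.7% of genes had a lower value. With 1 library per condition the difference was not tested.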

How the results depend on the processing

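The number of members past the limits was unchanged with TMM, size factors, TPM, 5 added reads, summed transcript counts and a minimum of 10 counts in all 6 comparisons, and the names were the same. An assumed variation between cultures lowered it. With a coefficient of variation of 0.2, the count was 0 for NBT and 1 (LAMA3) for trametinib against control, 2 (LAMA3, LAMB1) for the combination, 1 (LAMA3) for the combination against NBT, 1 (LAMA5) against trametinib, and 3 (LAMA5, LAMB2, NID1) between the single drugs. With 0.4 it was 0 in every comparison. Without a log2 limit it was 7, 8, 7, 6, 8 and 8 in the same order. Over all genes, 440, 993 and 1417 passed against control, 69, 365 and 547 with a coefficient of 0.2, 4, 22 and 51 with 0.4, and 5701, 6991 and 8132 without the log2 limit. With a departure from additivity of 1.5-fold, 1 member (LAMA5) departed in place of 0. For the 7 abundant genes no log2 ratio changed sign or side of the limit under another scaling or pseudocount, and the largest move was 0.23 (LAMA3 with trametinib, TPM). LAMA4 and NID1 kept their sign, but ratios that had not passed the test moved below 1 in size, as for NID1 with NBT against control (-2.36, and -0.94 with TPM) and in the combination against NBT (1.86, and 0.66 with TPM). Variation between cultures was not measured, and depth limits NID1 and LAMA4. No paired analysis was possible because each condition has 1 library.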
